A study of Mus musculus with 4 samples.

Results

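The genes described here are 10 of the 27998 genes in the deposited count table, the ligands and receptors of the interleukin-1 (IL-1) family that act on or come from myeloid cells. They were chosen by gene name, from a list drawn up with earlier results of these data known. The ligand genes are Il1a, Il1b, Il1rn and Il18. The receptor genes are Il1r1, Il1r2, Il1rap, Il1rl1, Il18r1 and Il18rap. All 10 were found in the table, and each had at least 1 count in the series.

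The cells were mouse splenocytes sorted for CD11b, a surface integrin of myeloid cells that NK cells also carry. They came from mice at steady state and from mice given GM-CSF, a growth factor for granulocytes and monocytes, in 3 once-daily injections of 10 µg, with cells taken 24 hours after the last one. The study's methods give an age of 8 to 12 weeks, and the labels give no strain, allele or number of mice for either library. Each condition was 1 library, read for RNA and for 5 antibody tags in the same cells (CITE-seq), so the 4 samples of the series are 2 libraries, and condition and library cannot be told apart.

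IL-1α and IL-1β are alarm signals of injured or infected tissue. They bind IL-1R1, which signals only together with the shared accessory chain IL-1RAcP, the product of Il1rap. IL-1β is made as an inactive precursor that caspase-1 cleaves after an inflammasome forms, and IL-18 is activated in the same way. The family has 2 kinds of brake among these genes. The product of Il1rn occupies IL-1R1 without signalling, and IL-1R2 binds IL-1 without a signalling domain of its own. ST2, the product of Il1rl1, receives IL-33 together with IL-1RAcP and is best known from mast cells, basophils, type 2 lymphoid cells and Th2 cells. The IL-18 receptor pairs Il18r1 with its accessory chain Il18rap and is a known feature of NK cells and T cells.

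Expression was read as UMIs, tags that count single RNA molecules. The UMIs of a gene were added up over a group of cells and scaled to that group's total (counts per 1e6 UMIs, CPM). The steady-state library held 4827 cells with 22358903 UMIs, and the GM-CSF library 6804 cells with 35007567 UMIs. The depositors gave 12 cell types, and a second matrix of 6075 cells, called the bundle here, that made up the types MoMacDC_c1, c2, c4, c5 and progenitor DC, with 17 cluster numbers. Intervals are exact 95% Poisson or binomial intervals and cover counting error only. With 1 library per condition no test of the conditions was possible, and a gene was called higher or lower when its ratio passed 2-fold with at least 50 UMIs over both groups.

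Marker genes were read first. The granulocyte or neutrophil list summed to 108159 and 105192 CPM in granulocytes and to 365581 and 295728 CPM in neutrophils, steady state first. The cells deposited as cDC2-A went against their name: all 6 NK cell genes (Ncr1, Klrb1c, Gzma, Klrk1, Eomes, Prf1) were present at a summed 16220 CPM and 16420 CPM, against 17.5 and 15.9 CPM for the 6 genes of DC progenitors or conventional DCs. They are called the cDC2-A (NK gene) cells here. In the steady state, the bundle clusters 11, 14 and 15 held 20975, 21474 and 160201 CPM of the granulocyte list. Among the deposited c4 cells of the steady state, 27 of 43 had at least 3 UMIs of the NK cell list. The libraries shared 8 cell barcodes, and 327 of the 11631 cells were called doublets and were kept. Several results that rest on the clusters or cells named here are given with and without them.

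On the mouse genome GRCm38, 5 of the 6 receptor genes lay side by side on the plus strand of chromosome 1, in the order Il1r2 (40074079 to 40125231), Il1r1 (40225080 to 40317257), Il1rl1 (40429570 to 40465415), Il18r1 (40465552 to 40500854) and Il18rap (40515362 to 40551705). Il1rl2, the IL-36 receptor gene, lay between Il1r1 and Il1rl1, and the whole run spanned 478 kb. Only 136 bases separated the end of Il1rl1 from the start of Il18r1. Il1rap lay apart, on chromosome 16 (26581704 to 26730117, plus strand). Il1rn (24336853 to 24351494, plus strand), Il1a (129299610 to 129309972) and Il1b (129364570 to 129371139, both minus strand) lay on chromosome 2, and Il18 lay on chromosome 9 (50554827 to 50581840, plus strand).

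Il1b, Il1rl1 and Il18rap carry the differences described below. The 250 bases before a RefSeq start of each (GRCm38.p6) are therefore shown 5′ to 3′, and none of them overlap an annotated exon. They are chr2:129371140-129371389 (minus strand), chr1:40429320-40429569 (plus strand) and chr1:40515112-40515361 (plus strand). Capitals mark TTGCNNAA (a C/EBP-type motif) and GAGGAA (a core of PU.1-type motifs), both searched on both strands.
Il1b: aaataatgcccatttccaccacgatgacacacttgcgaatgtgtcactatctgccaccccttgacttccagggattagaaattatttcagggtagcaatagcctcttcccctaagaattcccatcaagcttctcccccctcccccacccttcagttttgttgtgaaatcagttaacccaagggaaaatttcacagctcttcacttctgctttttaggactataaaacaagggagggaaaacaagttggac
Il1rl1: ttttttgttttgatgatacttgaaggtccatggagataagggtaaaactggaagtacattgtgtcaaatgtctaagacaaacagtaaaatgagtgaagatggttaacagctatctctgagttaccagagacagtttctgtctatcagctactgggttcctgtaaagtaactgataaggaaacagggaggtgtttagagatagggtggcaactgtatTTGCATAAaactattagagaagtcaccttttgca
Il18rap: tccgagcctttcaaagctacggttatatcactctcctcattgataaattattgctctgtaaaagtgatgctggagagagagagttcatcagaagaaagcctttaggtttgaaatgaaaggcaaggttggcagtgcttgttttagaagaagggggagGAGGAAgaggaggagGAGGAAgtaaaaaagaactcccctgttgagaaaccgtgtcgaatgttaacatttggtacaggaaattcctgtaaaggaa
The Il1rl1 stretch held 1 TTGCNNAA, 34 bases before the start, a motif present in 9.57% of all 32536 RefSeq promoter stretches of this length. The stretch before a second Il1rl1 start (chr1:40439379-40439628, plus strand, not shown) held 0 TTGCNNAA and 0 GAGGAA. The Il18rap stretch held GAGGAA 94 and 79 bases before the start, where 23.4% of all stretches hold at least 1. The Il1b stretch held neither of them, nor TTCNNNGAA (a STAT-type motif, in 7.04% of all) nor the NF-kB consensus (in 5.01%). Over all 16 starts of the 10 genes, TTGCNNAA occurred for 2 genes, TTCNNNGAA for 2, GAGGAA for 3 and the NF-kB consensus for 0. These are matches of letters, not measured sites.

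In the map of all 10 genes over types and libraries, the granulocytes stood out for Il1b, Il1rn, Il1r2, Il1rap and Il18rap. The macrophages stood out for Il18, the cDC2-A (NK gene) cells for Il18r1 and Il18rap, and c2 of the GM-CSF library for Il1rl1. Il1a and Il1r1 were close to absent in both libraries.

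**Figure D1:**
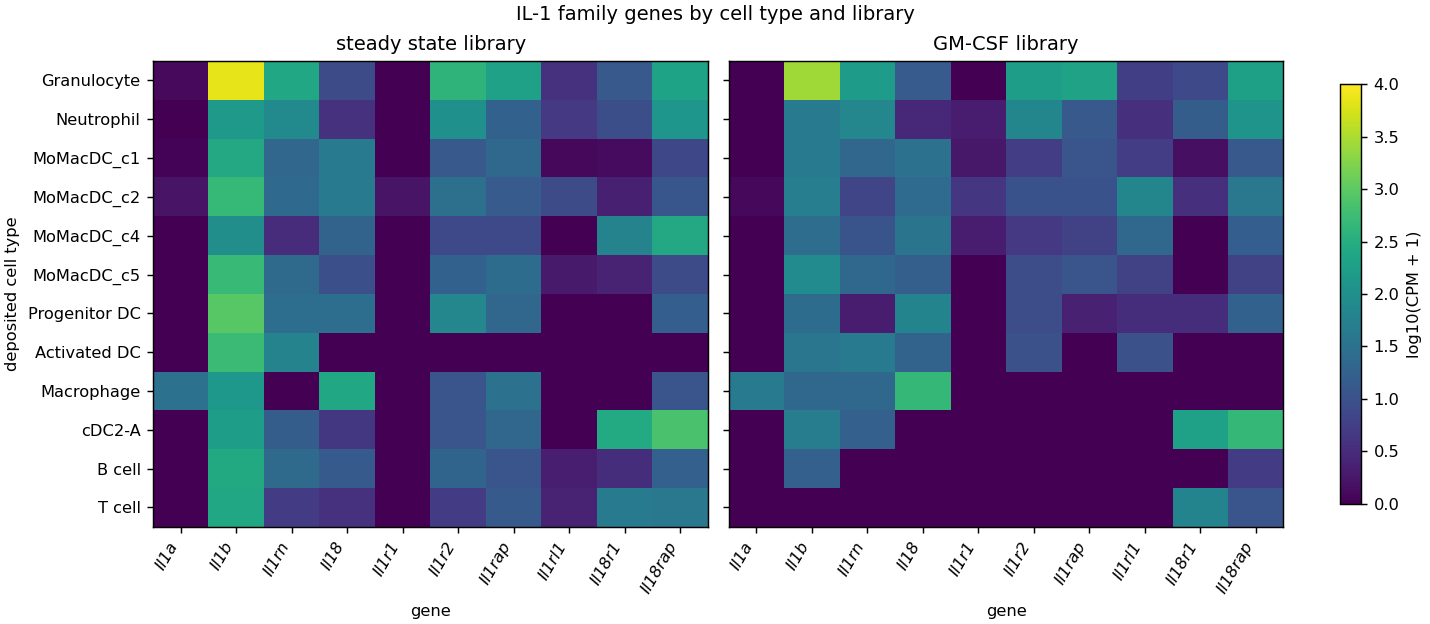
Colour gives log10(CPM + 1) of each of the 10 genes (x axis) in each deposited cell type (y axis), in the steady-state library (left) and the GM-CSF library (right). The brightest cell is Il1b in steady-state granulocytes at 7223 CPM, and c2 shows Il1rl1 at 68.2 CPM in the GM-CSF library against 7.52 CPM in the steady state.

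Il1b, the main secreted IL-1, was a granulocyte transcript. The 1929 steady-state granulocytes held 26542 Il1b UMIs, or 7223 CPM (7136 to 7310), and the 1791 granulocytes of the GM-CSF library held 6521, or 2702 CPM (2637 to 2769). The ratio of GM-CSF to steady state was 0.374 (0.364 to 0.384). The difference lay in the whole population: the median granulocyte had 12 Il1b UMIs at steady state and 3 in the GM-CSF library, the tenth and ninetieth percentiles were 4 and 26 against 0 and 8, and the highest cell had 78 against 19. A granulocyte with no Il1b UMI was rare at steady state, 0.518% of cells, and made up 13.7% in the GM-CSF library. Total UMIs per granulocyte were also lower there, with a median of 1229 against 1770. At 1000 UMIs per cell, which left out 8 and 496 granulocytes, 97.4% and 80.9% of them had an Il1b UMI.

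Of all Il1b UMIs in a library, granulocytes held 80.9% at steady state and 82.9% with GM-CSF, although they were 39.96% and 26.3% of the cells. Neutrophils, the deposited type with the higher sum of granule and S100 genes, had 142 and 43.0 CPM. Granulocytes were thus 50.7-fold (43.4 to 59.9) and 62.8-fold (54.9 to 72.5) above neutrophils. When an equal number of cells per type was taken, the share of Il1b UMIs in granulocytes was 34.0% and 64.8%.

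Outside the granulocytes, the Il1b level was lower in the GM-CSF library in every deposited type, with overlapping intervals in macrophages. It measured 258 and 45.6 CPM in c1, 472 and 50.2 CPM in c2, 519 and 84.4 CPM in c5, and 93.5 and 26.1 CPM in c4. The c1, c2 and c5 values include cells of the clusters with granulocyte genes. Cluster 11 alone held 7.52%, 6.21% and 10.3% of these types at steady state, and 1.64%, 3.40% and 1.44% with GM-CSF. Without these clusters, Il1b is given below only for the whole bundle and for progenitor DCs. Among the types with an Il1b UMI in both libraries, progenitor DCs had the lowest ratio, with 906 CPM (854 to 961) against 24.8 CPM (19.5 to 31.2), or 0.0276 (0.0214 to 0.0347). B cells, which should lack Il1b, had 270 CPM (237 to 307) at steady state and 15.9 CPM (4.34 to 40.8) in the GM-CSF library, and T cells had 245 CPM and 0 UMIs, where 0 allows up to 30.9 CPM.

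The level in B cells is the background against which the low levels must be read. An Il1b UMI was seen in 18.9% of steady-state B cells (median 2976.5 UMIs per cell) and 39.5% of c1 cells (median 7322), and at 1000 UMIs per cell in 8.95% and 14.8%. In the GM-CSF library the B cell share at 1000 UMIs was 2.60% and the c1 share 4.40%. The steady-state ratio of Il1b UMIs to UMIs of S100a8, an abundant granulocyte gene, was 0.171 in granulocytes, 0.209 in B cells, 0.254 in T cells, 0.329 in c1, 0.331 in c5, 0.289 in progenitor DCs and 0.150 in c2. In the GM-CSF library it was 0.0738 in granulocytes, 0.0494 in B cells and 0.106 in c1. The RNA in B cells was uneven, since 10% of the steady-state B cells held 92.0% of their Il1b UMIs. How much of the Il1b outside granulocytes came from other cells was not tested.

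Within the bundle at steady state, Il1b was highest in the 3 clusters with granulocyte genes, though not in the order of those genes. Cluster 11 had 1968 CPM at steady state and 434 CPM with GM-CSF, cluster 14 had 2591 and 635 CPM, and cluster 15 had 1035 and 40.7 CPM. The other clusters lay between 53.2 and 380 CPM at steady state and, where they held at least 10 cells, between 11.6 and 86.2 CPM with GM-CSF, a range that includes cluster 15. Over the bundle Il1b measured 367 and 41.3 CPM, a ratio of 0.113. Without the clusters 11, 14 and 15 it measured 149 and 32.2 CPM, a ratio of 0.216, so the gap was narrower there. Without these clusters the progenitor DC ratio was 0.0403.

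Il1rn, the IL-1 receptor antagonist, was also highest in granulocytes, at 251 CPM (235 to 268) and 154 CPM with GM-CSF. Its ratio of 0.613 (0.542 to 0.692) did not pass 2-fold. Neutrophils had 77.9 and 71.1 CPM, a ratio of 0.909. Because neutrophils went from 146 to 893 cells, their share of all Il1rn UMIs was 6.25% at steady state and 34.3% with GM-CSF, while the granulocyte share was 67.8% and 36.3%.

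In the bundle, the Il1rn ratio differed from type to type. It was 20.3 and 19.8 CPM in c1, a ratio of 0.979 (0.793 to 1.21), and 22.5 and 5.80 CPM in c2, a ratio of 0.256 (0.166 to 0.404). In c4 it was called higher, at 2.23 and 9.76 CPM, a ratio of 2.95 (0.756 to 176) that rests on 1 steady-state UMI. Progenitor DCs had 26.7 CPM at steady state and 3 UMIs, or 1.01 CPM, with GM-CSF. B cells had 22.8 CPM of Il1rn (13.9 to 35.3) at steady state and 0 UMIs with GM-CSF. The steady-state values of c1, c2 and progenitor DCs thus lie at that background. Without the clusters 11, 14 and 15, Il1rn measured 9.05 and 3.24 CPM in c2, and 9.39 CPM in steady-state progenitor DCs. Cluster 2, nearly all c1 cells, had 43.6 and 44.8 CPM. The c2 cells were not the same clusters in both libraries: 49.2% of them were in cluster 3 and 7.91% in cluster 0 at steady state, against 33.7% and 44.1% with GM-CSF.

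Il18 had another distribution from Il1b. The macrophages, 25 and 22 cells, had 249 CPM (160 to 371, from 24 UMIs) and 466 CPM (292 to 705, from 22 UMIs), and 44.0% and 36.4% of them had a UMI. Intervals of both libraries overlapped. The bundle held 88.5% and 93.2% of all Il18 UMIs, at 36.4 and 32.5 CPM. It held 44.2% and 57.9% of the cells and 66.9% and 77.4% of the UMIs of all genes. Granulocytes had 7.62 and 12.8 CPM and neutrophils 2.75 and 1.82 CPM, against 12.6 CPM in steady-state B cells.

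Progenitor DCs were the type in which Il18 was called higher with GM-CSF, with 26.7 CPM (33 UMIs) and 63.7 CPM (190 UMIs), a ratio of 2.36 (1.64 to 3.57). The share of these cells with a UMI was 19.1% and 36.1% at medians of 7014 and 7152 UMIs per cell, and 1.99% and 6.94% at 1000 UMIs. Their clusters 9 and 12 gave the same order, with 28.0 and 65.9 CPM and with 28.4 and 64.6 CPM. In c1 and c2 the ratio was below 1, at 0.709 and 0.562, and passed 2-fold in neither. Cluster 13 had 120 and 61.4 CPM. Il1b and Il18 thus stood in opposite order between the libraries in progenitor DCs.

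Il1a gave 6 UMIs at steady state and 4 with GM-CSF, of which macrophages held 3 and 2. At this depth no more can be said of it than that it was rare.

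**Figure D2:**
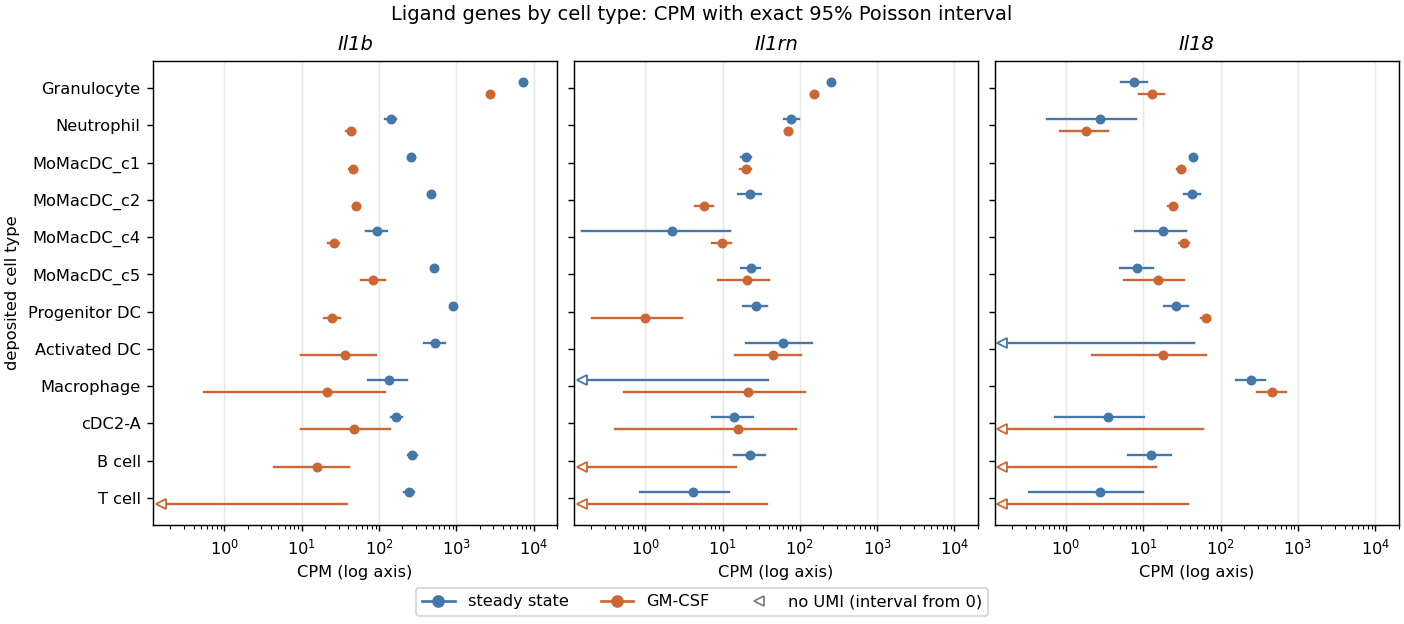
Points give the CPM (log axis) of Il1b, Il1rn and Il18 in each deposited cell type, blue for steady state and orange for GM-CSF, with exact 95% Poisson intervals; open triangles mark groups without a UMI. Il1b and Il1rn peak in granulocytes and Il18 in macrophages, and Il1b is lower with GM-CSF in every type.

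Il1r1, the signalling IL-1 receptor, was nearly undetected. It gave 1 UMI at steady state and 48 with GM-CSF, of which 43 lay in 42 bundle cells, 30 of the UMIs in c2, and 5 in neutrophils. Granulocytes had 0 in either library, which allows up to 0.816 CPM at steady state and 1.24 CPM with GM-CSF.

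Il1r2, the decoy receptor, was a granulocyte gene like Il1b. It measured 399 CPM (379 to 420) in steady-state granulocytes and 177 CPM with GM-CSF, a ratio of 0.443 (0.397 to 0.494). The share of granulocytes with a UMI was 48.2% and 19.9%, and 30.7% and 15.8% at 1000 UMIs. Neutrophils had 103 and 66.9 CPM, a ratio of 0.649 (0.524 to 0.814). As with Il1rn, the share of Il1r2 UMIs was 77.4% in granulocytes and 5.92% in neutrophils at steady state, and 46.1% and 35.7% with GM-CSF.

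Outside the granulocytes, the lower Il1r2 level with GM-CSF rested in part on the clusters 11, 14 and 15. Over the bundle it measured 19.1 and 6.20 CPM, a ratio of 0.325 (0.266 to 0.394), and without these clusters 8.70 and 5.13 CPM, a ratio of 0.590 (0.457 to 0.764) that was not called. Progenitor DCs had 70.4 and 7.72 CPM, c1 had 11.97 and 4.27 CPM, and c2 had 29.4 and 9.02 CPM. B cells had 18.3 CPM at steady state and 0 UMIs with GM-CSF, which allows up to 11.95 CPM, so the c1 values lie at the background. Without the clusters, progenitor DCs kept a wide difference, at 48.0 and 6.87 CPM, whereas c1 had 5.78 and 3.76 CPM and c2 had 9.80 and 7.41 CPM.

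Il1rap, the shared accessory chain, was level in granulocytes between the libraries, with 195 and 199 CPM and a ratio of 1.02 (0.907 to 1.15). It set granulocytes apart from neutrophils, which had 16.5 and 11.95 CPM, by 11.5-fold (7.44 to 20.1) and 16.6-fold (12.7 to 22.2). In c1 it was 21.6 and 10.4 CPM, a ratio of 0.481, and over the bundle the ratio was 0.381. In the GM-CSF library the granulocytes with an Il1b UMI and those without one had 204 (185 to 224) and 172 CPM (131 to 221) of Il1rap. Il1r2 measured 179 and 160 CPM and Il1rn 150 and 175 CPM in the same split, with overlapping intervals throughout.

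Among these genes, 7 could be compared between the libraries in granulocytes. Il1b and Il1r2 were called lower, where 3.2% of all genes were, and 0 were called higher, where 7.29% of all genes were. The median log2 ratio of the 7 was -0.71, and that of all genes 0.11. In neutrophils, 1 of 6 was called lower (Il1b; 2.48% of all genes) and 0 higher (3.62%). Between granulocytes and neutrophils at steady state, 4 of 6 genes were called higher in granulocytes, where 27% of all genes were, and with GM-CSF again 4 of 6, where 25.4% were. Il18r1 was the one called lower in granulocytes than in neutrophils with GM-CSF, at 6.63 and 14.4 CPM, where 14.9% of all genes were.

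The IL-18 receptor genes marked the cDC2-A (NK gene) cells. Il18r1 measured 281 CPM (246 to 318) at steady state and 191 CPM (98.8 to 334) with GM-CSF, and Il18rap 698 CPM (643 to 756) and 462 CPM (310 to 664). The GM-CSF values come from 20 cells, against 214 at steady state. An Il18rap UMI was present in 89.7% and 70.0% of these cells, and an Il18r1 UMI in 62.1% at steady state and in 8 of the 20 with GM-CSF. Neither gene passed 2-fold, and of the 3 genes that could be compared in this type, 1 was called lower (Il1b; 13.5% of all genes) and 0 higher (3.52%).

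Il18rap was also present without much Il18r1 in granulocytes, at 207 and 188 CPM, a ratio of 0.911, and in neutrophils, at 127 and 118 CPM. Il18r1 measured 12.2 and 6.63 CPM in granulocytes and 8.25 and 14.4 CPM in neutrophils. The NK cell list summed to 5.99 and 0.829 CPM in granulocytes and to 5.50 and 0.608 CPM in neutrophils, and no cell of either type had 3 UMIs of it. Steady-state granulocytes with an Il18r1 UMI had 249 CPM of Il18rap (156 to 377), and those without had 205 CPM (191 to 221). B cells had 16.0 and 3.98 CPM of Il18rap, and T cells 38.5 and 10.3 CPM, with 42.6 and 61.7 CPM of Il18r1.

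In the bundle, the order of the libraries for Il18rap differed between types. In c4 it measured 258 CPM (116 UMIs) at steady state and 14.6 CPM (84 UMIs) with GM-CSF. All 116 of those steady-state UMIs, and all 27 UMIs of Il18r1, lay in the 27 cells with NK cell genes. The other 16 steady-state c4 cells had 0 UMIs of either, which leaves an upper bound of 19.95 CPM. Without the cells with NK cell genes, c4 had 14.8 CPM of Il18rap with GM-CSF, and Il18r1 gave 0 UMIs in all 595 cells of that library.

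In c2, Il18rap measured 10.6 CPM at steady state and 38.3 CPM with GM-CSF, a ratio of 3.50 (2.22 to 6.25). Without the cells with NK cell genes it measured 8.23 and 38.8 CPM. Of the 6 NK cell genes, only 1 was seen in GM-CSF cluster 0 and only 1 in cluster 3. The cells left out of c2 were 25 and 51, with 0 Il18r1 UMIs. They had 23.0 and 27.9 CPM of Il18rap, against 439 CPM in those of steady-state c4. Without those cells and without the clusters 11, 14 and 15, the c2 ratio was 15.6. That ratio rests on few steady-state UMIs. Before the clusters were left out, steady-state c2 without the cells with NK cell genes held 11 Il18rap UMIs in 8 cells. Over the bundle, Il18rap measured 15.2 and 22.1 CPM, a ratio of 1.45. Without the cells with NK cell genes the bundle values were 7.35 and 22.1 CPM, and without the clusters as well they were 2.36 and 20.1 CPM, a ratio of 8.39. So the steady-state Il18rap of the bundle lay mostly in cells with NK cell or granulocyte genes, and that of the GM-CSF library did not. In GM-CSF cluster 3 it measured 39.7 CPM, in cluster 0 30.2 CPM and in cluster 9 25.6 CPM, against 3.98 CPM in the B cells of that library.

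**Figure D3:**
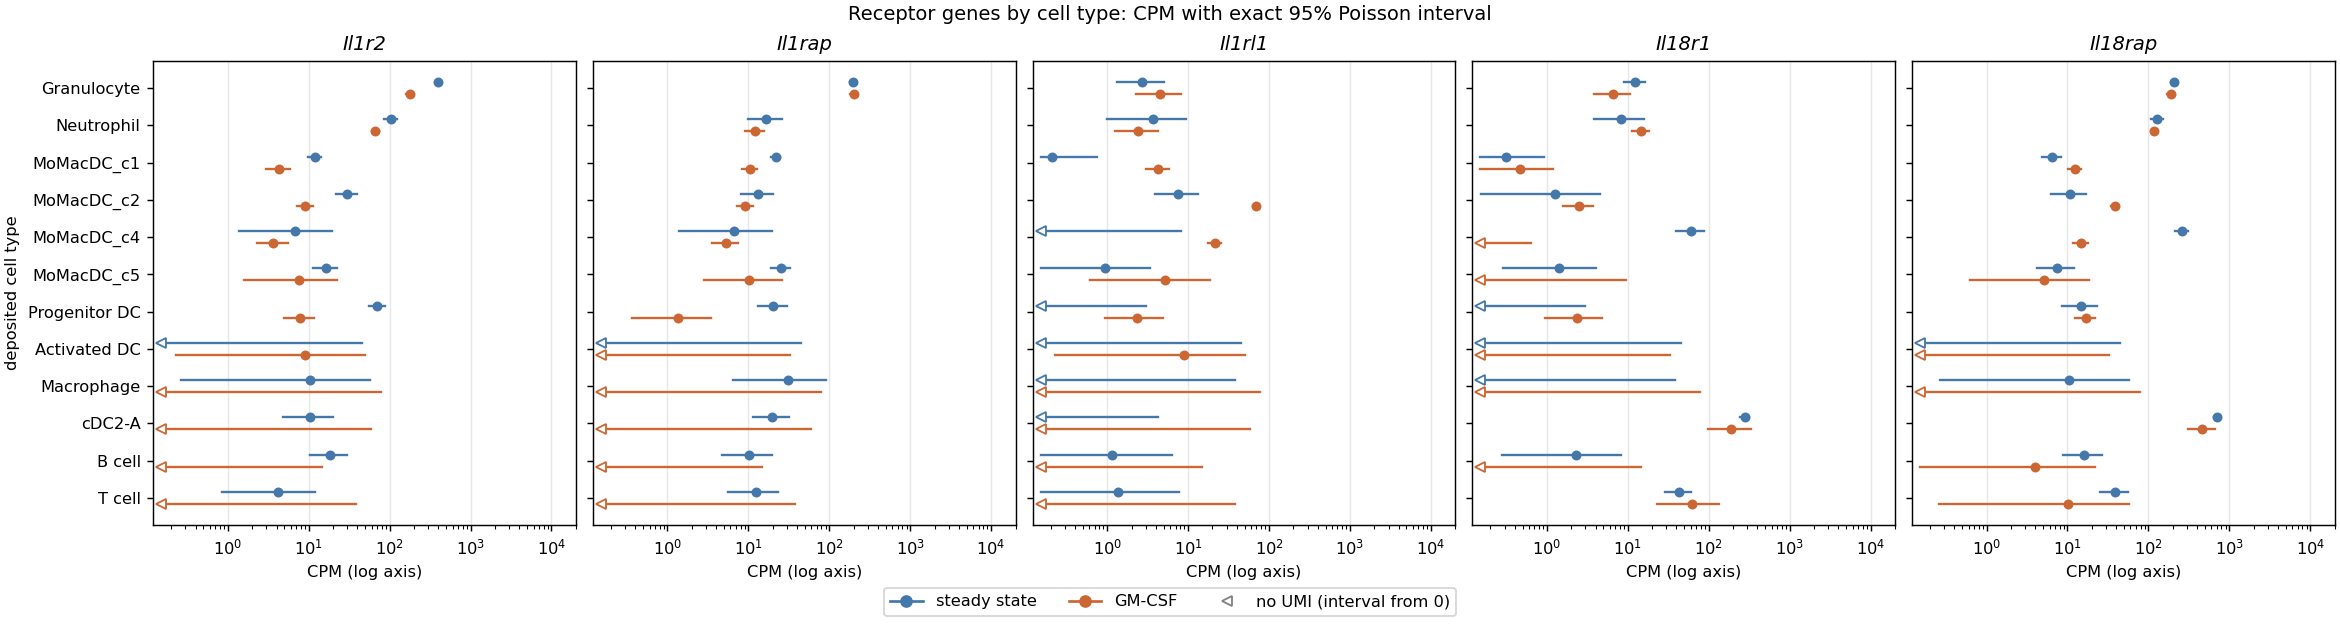
Points give the CPM (log axis) of Il1r2, Il1rap, Il1rl1, Il18r1 and Il18rap in each deposited cell type, blue for steady state and orange for GM-CSF, with exact 95% Poisson intervals; open triangles mark groups without a UMI. Il1r2 and Il1rap peak in granulocytes, Il18r1 and Il18rap in the cDC2-A (NK gene) cells, and Il1rl1 in c2 of the GM-CSF library.

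Il1rl1, the IL-33 receptor ST2, had the highest ratio of GM-CSF to steady state of these genes over the bundle. The series held 32 Il1rl1 UMIs at steady state and 828 with GM-CSF. Of these, 16 and 804 lay in the bundle, in 13 and 589 cells, with at most 3 and 5 in any cell. The bundle had 1.07 and 29.7 CPM, a ratio of 26.9 (16.98 to 48.8). The study lists Il1rl1 among its genes of P-IV cells, chosen on these same cells, so this is no independent evidence of that pattern.

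The type c2 held 76.7% of the Il1rl1 UMIs of the GM-CSF library and c4 held 14.9%. In c2 it measured 7.52 and 68.2 CPM, a ratio of 8.71 (5.16 to 17.6), with a UMI in 5.08% and 31.3% of cells. At 1000 UMIs per cell the shares were 1.78% and 6.46%. In c4 it measured 0 UMIs at steady state, which allows up to 6.68 CPM, and 21.4 CPM with GM-CSF. In c1 it gave 2 and 37 UMIs, or 0.210 and 4.27 CPM, and in granulocytes 2.72 and 4.56 CPM. B and T cells of the GM-CSF library had 0 UMIs, which allows up to 11.95 and 30.9 CPM.

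Among clusters with at least 10 cells in the GM-CSF library, Il1rl1 was highest in cluster 0 at 82.2 CPM, with a UMI in 40.6% of cells, and in cluster 3 at 58.6 CPM, where the steady state had 13.8 CPM. Clusters 10, 11, 15, 8 and 7 followed with 39.5, 31.0, 25.5, 24.6 and 14.2 CPM, of which cluster 15 rests on 10 UMIs. Cluster 1, mostly c1 cells, had 7.00 CPM and cluster 9, mostly progenitor DCs, had 1.34 CPM. The clusters were made by the authors from the RNA of these same cells, so the levels describe them and test nothing.

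Genes of basophils, which carry ST2, were near 0 where Il1rl1 was high. The basophil or mast cell list summed to 1.94 CPM in cluster 0 and 0.883 CPM in cluster 3, with 1 of its 7 genes seen in each. Of the 589 GM-CSF bundle cells with an Il1rl1 UMI, 6 had at least 3 UMIs of that list, and they held 10 of the 804 Il1rl1 UMIs.

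**Figure D4:**
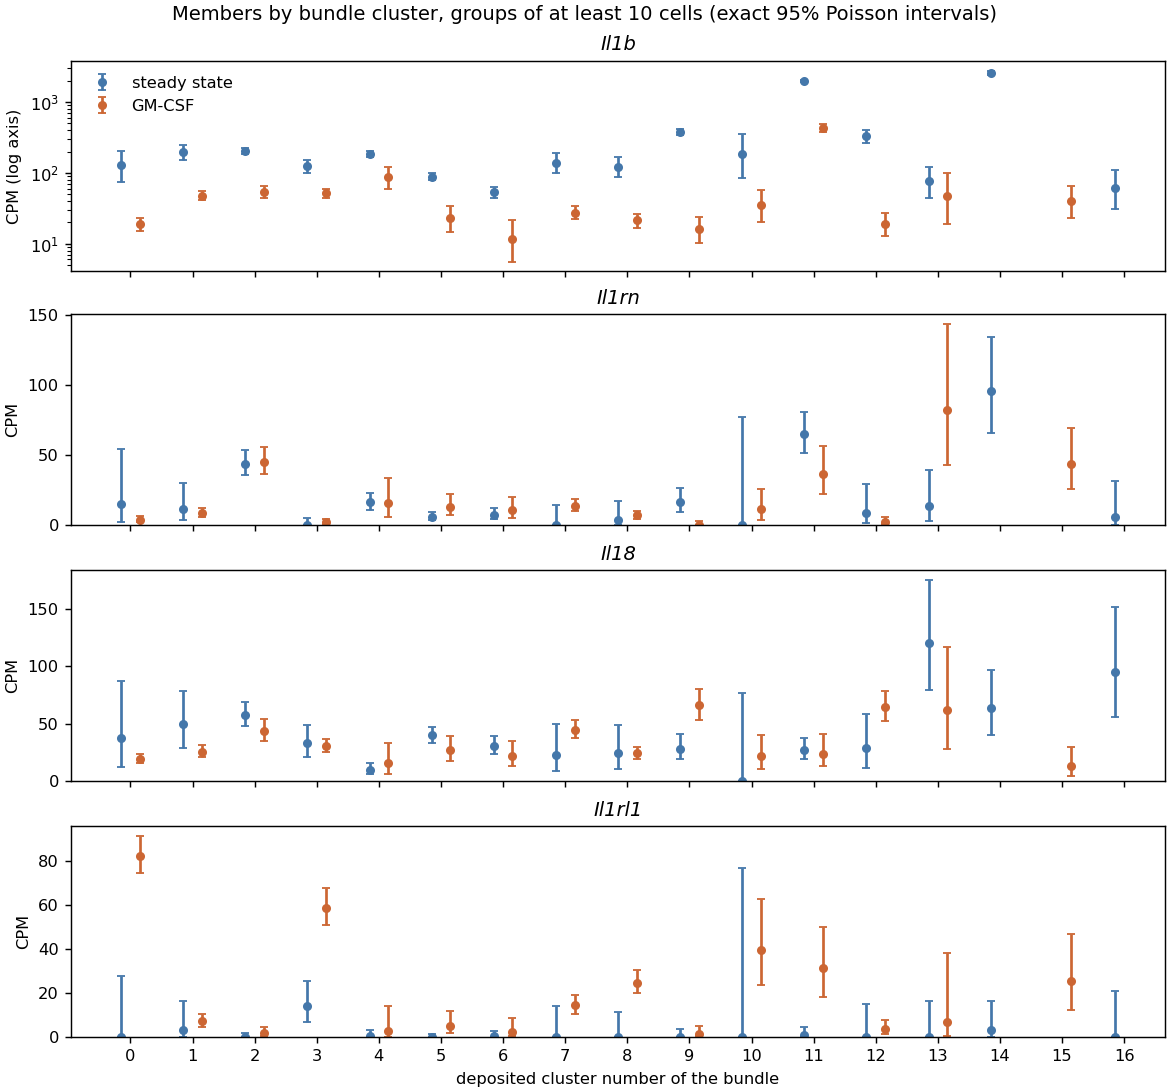
Points give the CPM of Il1b (log axis), Il1rn, Il18 and Il1rl1 in each deposited bundle cluster (x axis, cluster number), blue for steady state and orange for GM-CSF, with exact 95% Poisson intervals and groups of at least 10 cells. Il1b is highest in clusters 11 and 14 and lower with GM-CSF in each cluster shown in both libraries, while Il1rl1 is highest in GM-CSF clusters 0 and 3 at 82.2 and 58.6 CPM.

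The antibody tags were read in the same cells. The study gated P-IV on the CD301b and Ly6C tags, among others, and chose Il1rl1 as a P-IV gene on these cells. The order of Il1rl1 along both tags is therefore a description and no independent evidence. Over the GM-CSF bundle, Il1rl1 was 5.99 CPM in cells with 0 to 9 UMIs of the CD301b tag, 12.1 CPM with 10 to 39, 44.1 CPM with 40 to 159 and 76.1 CPM with 160 to 4040. The share of cells with an Il1rl1 UMI was 3.13%, 6.87%, 23.9% and 39.8%, at medians of 6047 to 7118 UMIs per cell. Il1rn ran the other way over the same bins, with 15.2, 14.2, 6.30 and 3.27 CPM. Il18rap had 16.7, 15.8, 28.1 and 34.3 CPM. Il1b showed no such order, with 38.9, 40.2, 49.5 and 40.7 CPM.

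Along the Ly6C tag, a mark of classical monocytes, the order turned. Il1rl1 measured 42.1, 42.2, 9.12 and 5.87 CPM from the lowest bin to the highest, and Il1rn 3.36, 5.71, 20.8 and 19.5 CPM. The receptor for IL-33 and the antagonist of IL-1 thus lay on opposite sides of both tags.

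The 589 GM-CSF bundle cells with an Il1rl1 UMI had 496 CPM of Mgl2, the gene of CD301b, and 469 CPM of Cd209a, against 162 and 171 CPM in the other 3351. Il1rn measured 3.30 CPM (1.85 to 5.44) and 12.3 CPM (10.9 to 13.9) in the same split, and Il18rap 31.2 and 20.3 CPM. Il1rap, the chain that ST2 signals with, measured 8.36 CPM (5.92 to 11.5) in cells with Il1rl1 and 7.76 CPM (6.65 to 9.002) in the others. Cells with an Il1rl1 UMI were deeper, with a median of 7343 against 6505 UMIs.

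**Figure D5:**
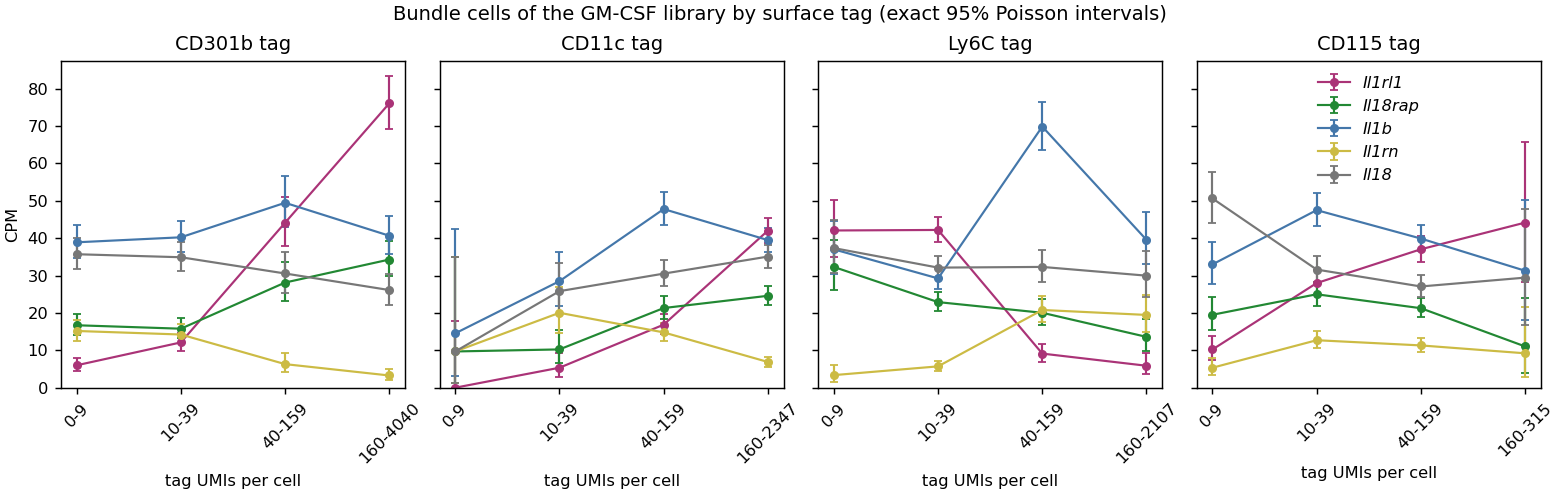
Lines join the CPM of Il1rl1, Il18rap, Il1b, Il1rn and Il18 in bundle cells of the GM-CSF library, binned by UMIs of the CD301b, CD11c, Ly6C or CD115 tag (x axes, tag UMIs per cell), with exact 95% Poisson intervals. Il1rl1 runs from 5.99 to 76.1 CPM along CD301b and from 42.1 to 5.87 CPM along Ly6C, and Il1rn runs the opposite way on both.

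The deposited subsets P-I (classical monocytes), P-III (pre-GMiDCs) and P-IV (GMiDCs) were gated on these tags and held 187, 126 and 313 cells of the GM-CSF library, with 3256 bundle cells deposited as CD115-. Il1rl1 measured 4.30 CPM in P-I, 8.11 CPM in P-III and 74.3 CPM (63.4 to 86.4) in P-IV. P-IV was thus 8.48-fold (4.12 to 25.3) above P-III and 16.0-fold (7.77 to 47.7) above P-I, and P-I and P-III had overlapping intervals. Because the study chose Il1rl1 as a P-IV gene on these same cells, both ratios are descriptions. In P-IV 35.8% of cells had a UMI, and 8.04% at 1000 UMIs per cell.

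Among these gated subsets, Il1b and its antagonist had their lowest levels in P-IV. Over the whole GM-CSF bundle, Il1b was not lower in the cells with the most CD301b tag, at 40.7 CPM. Il1b measured 53.1, 48.7 and 14.7 CPM in P-I, P-III and P-IV, and the ratio of P-IV to P-III was 0.302 (0.182 to 0.498). Il1rn measured 22.2 CPM in P-I, 16.2 CPM in P-III and 3.11 CPM in P-IV, with too few UMIs to be compared between P-IV and either other subset. Il18rap measured 14.3, 10.8 and 25.4 CPM, a ratio of P-IV to P-III of 2.23 (1.11 to 5.69) that rests on 8 UMIs in P-III and was 1.04 at 1000 UMIs per cell. Il18 measured 34.4, 17.6 and 24.9 CPM. Of 4 genes that could be compared between P-IV and P-III, 2 were called higher (1.91% of all genes) and 1 lower (1.01%), and between P-IV and P-I 1 was higher (3.63%) and 1 lower (3.53%). Il1rl1, chosen by the study for P-IV on these cells, is counted in both comparisons, and Il18rap is the other gene higher than in P-III. The counts of higher genes are therefore no independent evidence. At steady state P-III and P-IV held 12 and 7 cells and gave no usable value, and P-I had 298 CPM of Il1b against 53.1 CPM with GM-CSF. Of the 3 genes compared in P-I, that was the 1 called lower, where 7.12% of all genes were, and 0 were higher (4.99%). B cells, the background, had 270 CPM of Il1b (237 to 307) at steady state and 15.9 CPM (4.34 to 40.8) with GM-CSF. The steady-state P-I level and the P-IV level of Il1b thus lie at that background.

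Over the bundle as a whole, 8 of the 10 genes could be compared between the libraries. Il1rl1 was called higher, where 8.66% of all genes were, and Il1b, Il1r2 and Il1rap were called lower, where 9.46% were. Without the clusters 11, 14 and 15 Il1rl1 was the 1 called higher (8.6% of all genes), and 3 were lower (9.08%): Il1b and Il1rap kept their call, Il1r2 lost it at a ratio of 0.590, and Il18r1 gained one at 0.473. The counts by type that follow include these clusters. In c2, 2 of 7 were higher (6.02% of all genes) and 3 lower (6.81%), and in c1 0 of 6 were higher (5.48%) and 3 lower (7.26%). In progenitor DCs, Il18 was the 1 of 4 called higher (5.81%), and Il1b and Il1r2 were lower (8.06%). In c5, 2 of 3 were lower (6.73%) and 0 higher (2.43%). In c4, 2 of 5 were called higher (12.7%) and 2 lower (12%), counts that include the cells with NK cell genes.

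Beside the 10, a list of 52 gene names of the IL-1 pathway was examined, of which 48 were in the table. Some genes stand in the list under both an older and a newer symbol, such as Il1f6 and Il36a. In granulocytes, 30 could be compared, with 1 called higher (7.29% of all genes) and 4 lower (3.2%). The genes called lower were Nlrp3, the sensor of an inflammasome that matures IL-1β (407 and 188 CPM), the NF-kB feedback genes Nfkbiz (564 and 224 CPM) and Tnfaip3 (52.0 and 18.2 CPM), and the prostaglandin synthase gene Ptgs2, with the widest gap of the list (854 and 41.0 CPM, a ratio of 0.0483). Pycard, the adaptor that joins such sensors to caspase-1, was the gene called higher, with 11.2 and 62.2 CPM in granulocytes and 67.8 and 151 CPM in neutrophils. Of the 14 signalling genes compared in granulocytes, 0 were called in either direction.

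In the bundle, 39 genes of the list could be compared, with 4 called higher (Il1rl2, Nlrp1b, Elane and Lcn2; 8.66% of all genes) and 14 lower (9.46%). The count called higher was near that share. All 4 feedback genes (Nfkbia, Nfkbiz, Tnfaip3, Zc3h12a) were lower, with Nfkbiz at 379 and 54.0 CPM. This was not particular to myeloid cells. The median log2 ratio of the feedback genes compared was -0.81 in B cells and -1.86 in T cells, against -0.26 and -0.11 over all genes. Among the common targets, Cxcl2 was 135 and 25.1 CPM and Ptgs2 54.5 and 6.50 CPM, while Lcn2, also a granule gene, was called higher at 80.9 and 193 CPM. Nlrp3 was 72.9 and 17.3 CPM and Casp4 75.4 and 19.7 CPM. Without the clusters 11, 14 and 15, 4 of 38 were higher (8.6% of all genes) and 13 lower (9.08%).

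Il1rl2, next to Il1rl1 on chromosome 1, was called higher in the bundle as well, with 0.401 CPM (6 UMIs) at steady state and 12.6 CPM (340 UMIs) with GM-CSF. In c2 it measured 3.13 and 22.8 CPM. Between P-IV and P-I of the GM-CSF library it was 2.51-fold higher. Of the run of 6 receptor genes, the neighbours Il1rl2 and Il1rl1 were thus both called higher in the bundle of the GM-CSF library. Il1r1, with 1 and 43 UMIs, had too few to be compared, and Il18rap, at 15.2 and 22.1 CPM, did not pass 2-fold, but did so at 1000 UMIs per cell (2.65) and without the cells with NK cell genes (2.99). Il1r2 was called lower, though not without the clusters 11, 14 and 15, and Il18r1 measured 2.34 and 1.26 CPM. The pathway list was 0 of 21 in either direction between P-IV and P-III, where 1.91% of all genes were higher and 1.01% lower.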

How the data were processed

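Spleen cells sorted for CD11b were profiled by 10x 3′ CITE-seq. Per the labels and methods, the authors aligned reads to mm10 with Cell Ranger 3.0.2, removed cells outside a range of 200 to 5000 genes or above 15% mitochondrial UMIs, and clustered them with Seurat 3.6.0. The deposited values are raw UMI counts of RNA and tags per cell, with cell types, clusters, subsets and the deposited mitochondrial percent in cell tables. The authors counted the tags with CITE-seq-Count. No deposited column was left unmapped.

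Counts were summed over cells (Python 3.11.15, numpy 2.4.6, pandas 2.3.3), with exact Poisson and Clopper-Pearson intervals (scipy 1.17.1). A count of 0 was bounded at 3 UMIs per group, except in the c4 cells split by NK cell genes, where the exact Poisson bound is given. Ratios had 0.5 counts added to each sum, and an exact binomial interval. Cells were thinned to 1000 UMIs where shares were compared. Doublets were called per library with Scrublet (scanpy 1.11.5), 141 and 186 cells, and kept in the main values. The ratio script was tested on simulated counts. Reads that a gene shares with a neighbour or copy cannot be separated here, and in summed counts fewer expressing cells and less RNA per cell look alike. Levels of different genes are not comparable in 3′ counts, so order is given within a gene.

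The 10 genes, the marker lists and the pathway list were chosen with earlier results of these data known. Named genes were all 10, the pathway genes past 2-fold in the largest types and, for likeness over groups, the 3 genes with the highest correlation. Alternatives were other weighting, depth, doublet, gene-total and minimum-UMI settings, and leaving out clusters or cells with other lineages' genes, which was chosen after seeing the data.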

Additional observations from a re-analysis of the deposited data

Results flagged for a closer look

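Il18rap stood in opposite order between the libraries in 2 deposited types. Its ratio of GM-CSF to steady state was 3.50 in c2 and 0.0568 in c4. The difference was not tested, since each condition is 1 library. All steady-state Il18rap UMIs of c4 lay in the 27 cells with at least 3 UMIs of NK cell genes, and in the other 16 cells the count was 0.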

How the results depend on the processing

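No paired analysis was possible because the conditions share only the number 1 and each is 1 library, and no replicate could be left out. Set against the alternatives, the main values kept direction and size 137 times, moved 30 times and turned 2 times; of the 86 levels by type, 40 moved at 1000 UMIs per cell and 0 with at most 10% mitochondrial UMIs. The Il1b ratio in granulocytes (0.374) was 0.406 with each cell weighted equally. In progenitor DCs (0.0276) it was 0.0380 at 1000 UMIs per cell, 0.0186 without doublets, 0.0403 without clusters 11, 14 and 15, and 0.0414 without these and the cells with NK cell genes. Over the bundle (0.113) it was 0.132, 0.137, 0.105, 0.216 and 0.221 under these 5 settings. The Il18rap ratio of the bundle (1.45) was 1.79 with equal weights, 2.65 at 1000 UMIs, 1.77 without the clusters, 2.99 without the cells with NK cell genes and 8.39 without both. In c2 (3.50) it was 7.08 without the clusters and 15.6 without both, the latter from at most 11 steady-state UMIs. In c4 (0.0568) it turned to 5.50 without the cells with NK cell genes and 5.16 without both, values that rest on a steady-state count of 0 and the 0.5 added. At 1000 UMIs, P-IV over P-III was 0.153 for Il1b (0.302) and 1.04 for Il18rap (2.23), and 8.04% of P-IV cells had Il1rl1 (35.8%). Granulocytes held 85.5% and 86.9% of Il1b UMIs without doublets and 34.0% and 64.8% at equal cell numbers. Genes past 2-fold higher in granulocytes (456) were 815 with a minimum of 20 UMIs, 270 with 100 and 2693 with none. Without a minimum, 839 were lower (200), and in the bundle 1808 were higher (941) and 2712 lower (1027). The Il1rl1 ratio of the bundle ranged from 18.8 to 32.7. Low counts limit Il1a, Il1r1, macrophages and steady-state P-III and P-IV.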

Other observations

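Genes with levels most like each member were looked up over the 23 groups of deposited type and library with enough counts, among 8048 genes, by Pearson's correlation of log2(CPM + 10). The groups share libraries, depth and free RNA, so the values are descriptions. Il1b was nearest to Clec4d (0.897), Neat1 (0.896) and Csf3r (0.891), the last the receptor gene for G-CSF. Il1r2 was nearest to Ppp1r3b (0.939), Cxcr2 (0.936) and Trem1 (0.929), and Il1rap to Vnn3 (0.954), Gad1-ps (0.944) and Usp32 (0.936). Il1rn was nearest to Lilr4b (0.922), C5ar1 (0.905) and Ppp1r2 (0.901). Il18r1 was nearest to the cytotoxic-cell genes Nkg7 (0.962), Il2rb (0.957) and Ctsw (0.927), whereas Il18rap was nearest to Gfod1 (0.916), with Chsy1 (0.812) and Hk1 (0.811) well behind. Il1rl1 was nearest to Slc27a3 (0.937), Hr (0.920) and Fgfr1 (0.895), and Il18 to B4galt4 (0.885), Tmem141 (0.870) and 2310040G24Rik (0.856). Among the members, the closest pairs were Il1r2 with Il1rap (0.829), Il1b with Il1rap (0.812) and Il1rn with Il1r2 (0.790), followed by Il18r1 with Il18rap (0.767). Il1rl1 with Il18r1, its neighbour on chromosome 1, gave -0.30.

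In progenitor DCs, 27 genes of the pathway list could be compared between the libraries, with 0 called higher (5.81% of all genes) and 10 lower (8.06%). All 4 feedback genes were among the lower ones, and Cxcl2 measured 161 CPM at steady state and 5.03 CPM with GM-CSF.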
